A study of Mus musculus with 6 samples.

Results

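Forebrain and eye field transcription factors were examined in whole-transcriptome RNA sequencing of C57BL/6 mouse embryo samples at embryonic day 12. The set holds 10 genes, Emx1, Emx2, Otx1, Otx2, Nkx2-1, Six3, Six6, Tbr1, Eomes and Rax, which were chosen by name and matched 10 of the 56359 entries of the deposited table. There were 3 Tmem216-/- samples and 3 wild type samples, all C57BL/6 and all labelled only as embryo. The labels name neither the allele, nor the part of the embryo that was taken, nor whether the samples came from different embryos, so p values cover only the variation among these samples, some of which may be technical. Levels are in TPM, a length-scaled share of a sample's transcripts, and read depth is unknown. Genes that reached 1 TPM in 3 or more of the 6 samples, 16411 in all, were tested with limma on log2(TPM + 1). A gene was called at an adjusted p under 0.05, and every adjusted p below is by the method of Benjamini and Hochberg over all 16411 genes. Of the 10 factors 8 were tested, and Six6 and Rax were too low.

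Tmem216 encodes a transmembrane component of the transition zone, the gate at the base of the primary cilium, and mutations of its human counterpart cause Joubert and Meckel syndromes. Hedgehog signals are processed in the primary cilium, and in the mouse forebrain they pattern the ventral telencephalon, the hypothalamus and the division of the eye field. The factors studied here mark regions of that territory. Emx1, Emx2, Tbr1 and Eomes belong to the dorsal telencephalon that forms the cortex, Nkx2-1 to the ventral telencephalon and hypothalamus, Otx1 and Otx2 to the forebrain and midbrain, and Six3, Six6 and Rax to the anterior forebrain and the eye field.

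Sequences upstream of transcription starts are shown for 3 of the factors, Eomes and Nkx2-1, whose Tmem216-/- values all lay below wild type, and Otx2, whose values all lay above. Each is the 250 bases before a RefSeq start in GRCm38.p6, printed 5′ to 3′ on the strand of the gene, and capitals mark matches to the motifs named after them. RefSeq start windows were matched for 8 factors, and only windows without bases of a GENCODE M21 exon are printed. The Otx2 window is the most upstream of several matched RefSeq starts. It lies inside the GENCODE M21 gene, whose 5′ end is at 48673819.
Eomes, chr9:118477939-118478188, plus strand: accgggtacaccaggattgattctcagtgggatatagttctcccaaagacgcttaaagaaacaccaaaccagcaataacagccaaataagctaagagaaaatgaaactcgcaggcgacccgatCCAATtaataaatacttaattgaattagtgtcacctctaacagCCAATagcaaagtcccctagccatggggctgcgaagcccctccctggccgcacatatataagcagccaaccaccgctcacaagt
Nkx2-1, chr12:56536909-56537158, minus strand: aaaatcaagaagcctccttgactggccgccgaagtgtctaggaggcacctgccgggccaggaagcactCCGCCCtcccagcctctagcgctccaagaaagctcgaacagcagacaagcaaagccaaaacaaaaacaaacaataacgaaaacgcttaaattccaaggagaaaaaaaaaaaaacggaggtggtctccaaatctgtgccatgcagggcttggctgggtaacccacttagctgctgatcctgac
Otx2, chr14:48667645-48667894, minus strand: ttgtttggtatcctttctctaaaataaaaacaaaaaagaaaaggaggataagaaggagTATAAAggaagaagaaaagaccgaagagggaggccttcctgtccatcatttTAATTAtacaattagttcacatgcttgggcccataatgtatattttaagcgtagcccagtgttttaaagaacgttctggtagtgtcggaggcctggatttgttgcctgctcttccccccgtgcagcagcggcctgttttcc

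The search covered both strands for a Gli site (TGGGTGGTC), a T-box site (GGTGTGA), a homeodomain site (TAATTA), a GC box (GGGCGG), the CCAAT box and the TATA box (TATAAA), and no matches of different motifs overlap in the 3 printed windows. The Eomes window held 2 CCAAT matches, a motif present in 33.8% of 32851 RefSeq windows of the same length. The Nkx2-1 window held 1 GC box, against 32.7% of all windows with at least 1. The Otx2 window held 1 TAATTA, against 4.84% of all windows, and 1 TATAAA, against 12.4%. Neither the Gli site, found in 0.225% of all windows, nor the T-box site, found in 3.33%, had a match in these 3 windows. A match is a run of letters in a short window and says nothing of binding.

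The samples themselves differed in more than these factors. Tmem216 was 2.25, 0.51 and 1.39 TPM in Tmem216-/- and 31.0, 30.7 and 17.4 TPM in wild type (log2 fold change -3.55, SE 0.34, adjusted p = 0.0266 in limma). Cpsf7 shares 13789 bases with Tmem216 on the other strand. The labels do not say that the library kept strand, so reads from that stretch cannot be assigned to either gene. The Tmem216 call was lost without any one sample other than Tmem216-/- replicate 1, with adjusted p of up to 0.196 in limma, while the log2 fold change ran from -3.81 to -3.25. Also without a call were a pseudocount of 0.1, no filter, scaling to pan-neural genes and a Y-linked covariate (adjusted p of 0.0667 to 0.0874 in limma). Of the 16411 tested genes 17 were called, 0.104%, of which 16 were higher in Tmem216-/-. The number called was 27, 9 and 7 without Tmem216-/- replicate 1, 2 or 3, and 0, 2 and 1 without wild type replicate 1, 2 or 3. Summed over 12 heart muscle genes the level was 1273 to 2914 TPM in Tmem216-/- and 143 to 242 TPM in wild type, and 11 of the 12 were called, all higher. That count was 10, 6 and 1 without Tmem216-/- replicate 1, 2 or 3, and 0, 2 and 0 without wild type replicate 1, 2 or 3. Summed over 10 fetal liver genes it was 1015, 106 and 143 TPM in Tmem216-/- and 2068, 2429 and 205 TPM in wild type, so that Tmem216-/- replicate 1 and wild type replicate 3 stood apart from their groups. The part of heart and liver RNA in the results below was not tested, and values without either of these samples are given with the factors. In bulk samples fewer cells of a type and less RNA per cell cannot be told apart.

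The 10 factors did not all lie on one side of wild type. The cortical and ventral telencephalon genes Emx1, Eomes, Tbr1 and Nkx2-1 were at 21.7% to 37.9% of their wild type means in Tmem216-/-, Emx2 was at 69.5%, and Otx1, Otx2 and Six3 were at or above wild type. None of the 8 tested factors was called in limma, against 0.104% of all genes, while 5 were lower at an unadjusted p under 0.05, against 2.22% of all tested genes, and 1 was higher, against 2.24%. These 6 became 2 without Tmem216-/- replicate 2 or replicate 3, and 3 without wild type replicate 1 or replicate 3. Among all 10 factors every Tmem216-/- value lay below every wild type value for 4 (Emx1, Emx2, Nkx2-1 and Eomes), against 4.83% of all tested genes. Every Tmem216-/- value lay above every wild type value for 2 (Otx1 and Otx2), against 4.75%, and the groups overlapped for the other 4. The factors were chosen with earlier results of these data known, so the comparison with the shares of all genes is not independent. The median log2 fold change of the 8 tested factors was -0.91, beside -0.01 over all tested genes.

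**Figure D1:**
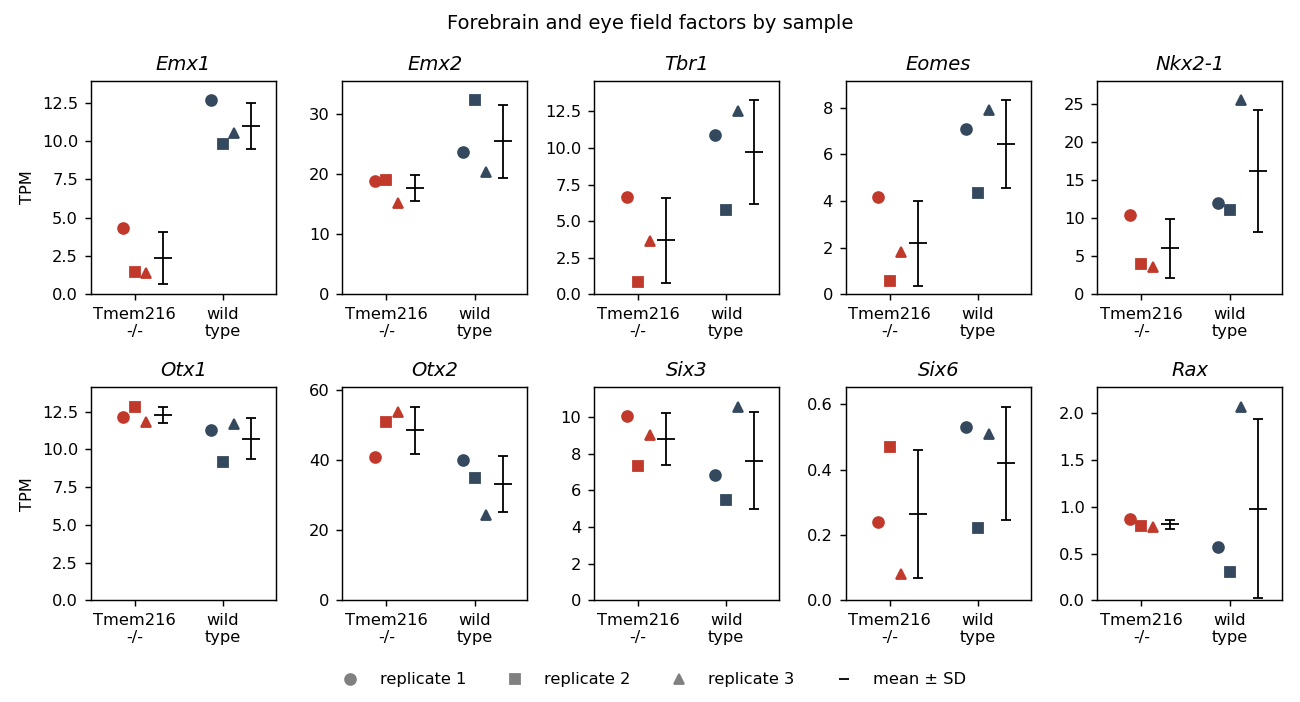
TPM (vertical axis, linear) of the 10 factors in the 3 Tmem216-/- samples (red, left) and the 3 wild type samples (dark blue, right), with marker shape for the replicate number and the bar for mean ± SD. Emx1 separates the groups most clearly, at 1.38 to 4.35 TPM in Tmem216-/- and 9.8 to 12.7 TPM in wild type, while Otx2 lies the other way.

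Emx1, a homeobox gene of dorsal telencephalic progenitors and their cortical neurons, showed the largest difference of the set. It was 4.35, 1.42 and 1.38 TPM in Tmem216-/- replicates 1, 2 and 3, and 12.7, 9.8 and 10.5 TPM in wild type. The groups did not overlap, and Tmem216-/- replicate 1 lay well above the other 2 samples of its genotype. The mean was 2.38 ± 1.70 TPM in Tmem216-/- and 11.0 ± 1.49 TPM in wild type (SD, n = 3 each), a 4.62-fold lower mean. The log2 fold change was -1.93 (SE 0.34, adjusted p = 0.203 in limma). Emx1 was not called in the full comparison, and it was called without Tmem216-/- replicate 1 (-2.32, adjusted p = 0.0252 in limma). The gene (ENSMUSG00000033726) lies on chromosome 6 at 85187438 to 85204462, plus strand, in mm10.

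Emx2, its paralog, is active in the dorsal telencephalon and also in the urogenital system, and its difference was smaller. It was 18.8, 19.1 and 15.2 TPM in Tmem216-/- and 23.7, 32.3 and 20.4 TPM in wild type. The groups did not overlap, although the lowest wild type value lay close above the highest Tmem216-/- value. The mean was 17.7 ± 2.17 TPM in Tmem216-/- and 25.5 ± 6.14 TPM in wild type (SD, n = 3 each), with a log2 fold change of -0.48 (SE 0.19, adjusted p = 0.983 in limma). Emx2os, an antisense RNA that shares 264 bases with Emx2 on the other strand, was 1.31, 0.85 and 1.68 TPM in Tmem216-/- and 1.55, 2.38 and 1.23 TPM in wild type. The labels do not say that the library kept strand, so reads from the shared stretch cannot be assigned to one of the 2 genes. The log2 ratio of Emx1 over Emx2 within a sample was -1.89, -3.05 and -2.77 in Tmem216-/- and -0.85, -1.62 and -0.89 in wild type. The difference in that ratio was -1.45 with no overlap between groups (exact two-sided permutation p = 0.1, the smallest that 3 against 3 samples can give, and 0.4 adjusted over the 4 pairs compared), so the pair could not be shown to differ in its response.

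Tbr1, a T-box gene of early-born excitatory cortical neurons, was 6.64, 0.81 and 3.62 TPM in Tmem216-/- and 10.9, 5.75 and 12.5 TPM in wild type. The groups overlapped, since Tmem216-/- replicate 1 exceeded wild type replicate 2. The mean was 3.69 ± 2.92 TPM in Tmem216-/- and 9.72 ± 3.53 TPM in wild type (SD, n = 3 each), with a log2 fold change of -1.36 (SE 0.54, adjusted p = 0.983 in limma). Eomes, the T-box gene of the intermediate progenitors that give rise to such neurons, was 4.16, 0.56 and 1.81 TPM in Tmem216-/- and 7.07, 4.32 and 7.91 TPM in wild type. Its groups were separated only by the small gap between 4.16 TPM in Tmem216-/- replicate 1 and 4.32 TPM in wild type replicate 2. The mean of Eomes was 2.18 ± 1.83 TPM in Tmem216-/- and 6.43 ± 1.88 TPM in wild type (SD, n = 3 each), with a log2 fold change of -1.36 (SE 0.45, adjusted p = 0.978 in limma).

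Tbr1 and Eomes had the most similar profiles of the set. Likeness was measured as the root mean square difference between log2(TPM + 1) profiles over the 6 samples, each centred on its own mean, and it was 0.17 for Tbr1 and Eomes, the smallest of the 28 pairs of tested factors. Both genes were lowest in Tmem216-/- replicate 2 and highest in wild type replicate 3, and only Tmem216-/- replicate 1 and wild type replicate 2 changed places in the order of samples. The log2 ratio of Tbr1 over Eomes was 0.57, 0.21 and 0.72 in Tmem216-/- and 0.56, 0.34 and 0.60 in wild type, with means of 0.50 ± 0.26 in Tmem216-/- and 0.50 ± 0.14 in wild type (SD, n = 3 each; exact two-sided permutation p = 1). Tbr1 (ENSMUSG00000035033) lies on chromosome 2 at 61802930 to 61814114 and Eomes (ENSMUSG00000032446) on chromosome 9 at 118478212 to 118486132, both on the plus strand in mm10.

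Nkx2-1, a homeobox gene of the ventral telencephalon and hypothalamus that is also active in lung and thyroid, was 10.5, 4 and 3.60 TPM in Tmem216-/- and 12.04, 11.1 and 25.5 TPM in wild type. The groups did not overlap, but Tmem216-/- replicate 1 lay close to 2 of the wild type samples and wild type replicate 3 was far above the rest. The mean was 6.03 ± 3.87 TPM in Tmem216-/- and 16.2 ± 8.06 TPM in wild type (SD, n = 3 each), with a log2 fold change of -1.33 (SE 0.44, adjusted p = 0.983 in limma). Of the lung and thyroid markers, the summed level of 12 genes was 226 to 291 TPM in Tmem216-/- and 206 to 261 TPM in wild type, and none of the 9 tested was called. Much of that sum came from Id2, Sox9 and Bmp4, which many embryonic tissues express (Id2 and Sox9 were chosen after their values were seen). Bmp4, a signalling protein gene, was 42.6, 38.3 and 35.05 TPM in Tmem216-/- and 24.0, 20.1 and 26.9 TPM in wild type, with no overlap (log2 fold change 0.69, SE 0.14, adjusted p = 0.310 in limma). Sftpc, the surfactant gene of lung epithelium, chosen here after its values were seen, was listed at 0.93, 0 and 0 TPM in Tmem216-/- and at 0, 0.22 and 0 TPM in wild type. Nkx2-1 (ENSMUSG00000001496) lies on chromosome 12 at 56531958 to 56536908, minus strand, in mm10.

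Otx2, a homeobox gene of the rostral brain, retinal pigment epithelium and choroid plexus, was the most abundant factor and lay higher in Tmem216-/-. It was 40.8, 50.8 and 53.9 TPM in Tmem216-/- and 40.2, 35.0 and 24.4 TPM in wild type. The groups did not overlap, with replicate 1 of Tmem216-/- only just above replicate 1 of wild type. The mean was 48.5 ± 6.82 TPM in Tmem216-/- and 33.2 ± 8.04 TPM in wild type (SD, n = 3 each), with a log2 fold change of 0.55 (SE 0.20, adjusted p = 0.983 in limma). Otx2os1, a long noncoding RNA on the other strand that shares 5112 bases with the Otx2 locus, was 2.07, 3.35 and 2.32 TPM in Tmem216-/- and 1.47, 1.32 and 0.83 TPM in wild type (log2 fold change 0.69, SE 0.22, adjusted p = 0.924 in limma). Without strand information reads from the shared stretch cannot be told apart, so the RNA is not a separate measurement of the locus. Otx2 (ENSMUSG00000021848) lies on chromosome 14 at 48657677 to 48673819, minus strand, in mm10.

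Otx1, a paralog that acts with Otx2 in forebrain and midbrain, was 12.2, 12.8 and 11.8 TPM in Tmem216-/- and 11.3, 9.14 and 11.7 TPM in wild type. The groups did not overlap, but by a gap of a small fraction of a TPM. The mean was 12.3 ± 0.53 TPM in Tmem216-/- and 10.7 ± 1.38 TPM in wild type (SD, n = 3 each), with a log2 fold change of 0.19 (SE 0.14, adjusted p = 0.983 in limma). The log2 ratio of Otx1 over Otx2 averaged -1.89 ± 0.22 in Tmem216-/- and -1.52 ± 0.46 in wild type (SD, n = 3 each), and the groups overlapped (exact two-sided permutation p = 0.3, and 0.4 adjusted over the 4 pairs).

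Six3, a homeobox gene of the anterior forebrain and lens that limits Wnt signalling, was 10.1, 7.30 and 9.01 TPM in Tmem216-/- and 6.82, 5.49 and 10.6 TPM in wild type. Wild type replicate 3 had the highest value of all, and the groups overlapped. The mean was 8.80 ± 1.40 TPM in Tmem216-/- and 7.63 ± 2.63 TPM in wild type (SD, n = 3 each), with a log2 fold change of 0.22 (SE 0.24, adjusted p = 0.983 in limma). Six3os1, an RNA on the other strand that shares 4791 bases with the Six3 locus, was 15.1, 12.6 and 14.4 TPM in Tmem216-/- and 11.9, 9.50 and 12 TPM in wild type, with groups that did not overlap (log2 fold change 0.31, SE 0.14, adjusted p = 0.983 in limma). The same limit on strand holds for this pair.

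Six6, the Six3 paralog of the retina, hypothalamus and pituitary, was 0.24, 0.47 and 0.08 TPM in Tmem216-/- and 0.53, 0.22 and 0.51 TPM in wild type. No sample reached 1 TPM, and the groups overlapped. The log2 ratio of Six3 over Six6 averaged 2.96 ± 0.40 in Tmem216-/- and 2.57 ± 0.32 in wild type (SD, n = 3 each; exact two-sided permutation p = 0.2, and 0.4 adjusted over the 4 pairs). The added 1 TPM exceeds every Six6 value, so this ratio mostly restates Six3. Its difference between genotypes was 0.389, and 0.85 with a pseudocount of 0.1. Rax, which specifies the eye field and is active in retina and hypothalamus, was 0.87, 0.79 and 0.78 TPM in Tmem216-/- and 0.57, 0.30 and 2.07 TPM in wild type. Its Tmem216-/- values lay within the wild type range, and wild type replicate 3 was the only sample above 1 TPM. With no filter the log2 fold changes of Six6 and Rax were -0.17 and -0.02 (adjusted p = 0.925 and 0.994 in limma), on a scale where the added 1 TPM exceeds most of these values.

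**Figure D2:**
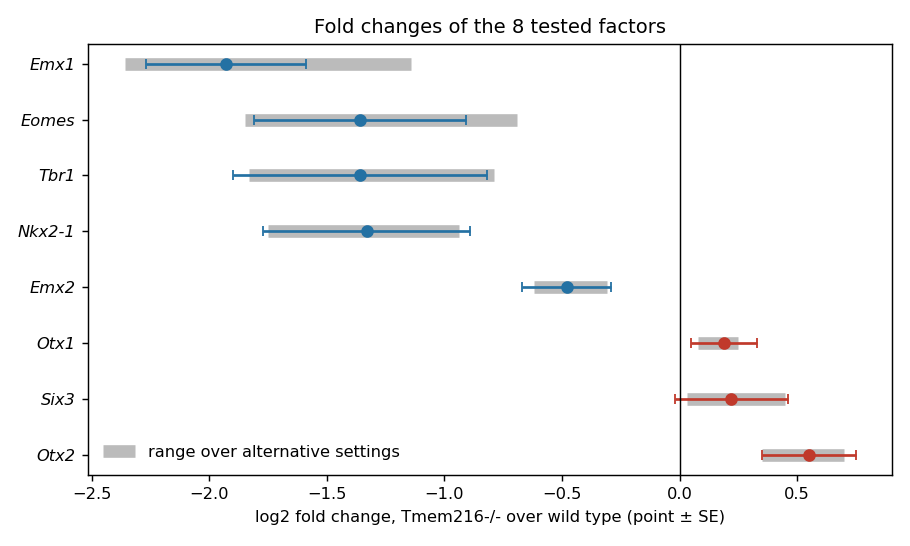
Log2 fold change of Tmem216-/- over wild type (horizontal axis) of the 8 tested factors, as points with the moderated SE, blue where lower and red where higher in Tmem216-/-. Grey bars give the range over all alternative settings. Emx1 stands lowest at -1.93 and Otx2 highest at 0.55. No grey bar crosses 0, although that of Six3 reaches down to 0.03.

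The order of levels among the factors differed between genotypes. In Tmem216-/- Otx2 (48.5 TPM on average), Emx2 (17.7), Otx1 (12.3) and Six3 (8.80) followed each other with no overlap between neighbours. Below them Nkx2-1 (6.03), Tbr1 (3.69), Emx1 (2.38), Eomes (2.18) and Rax (0.81) each overlapped their neighbours, Six3 and Nkx2-1 included, and Six6 (0.26) lay under all Rax values. In wild type Otx2 (33.2) and Emx2 (25.5) were followed by Nkx2-1 (16.2), Emx1 (11.0), Otx1 (10.7), Tbr1 (9.72), Six3 (7.63) and Eomes (6.43), all of which overlapped their neighbours. Rax (0.98) and Six6 (0.42) came last in wild type, and the gap between Eomes and Rax was the only one without overlap. Emx1 had rank 7 in Tmem216-/- and rank 4 in wild type.

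The low factors were set beside the summed level of neural genes, and the part of neural content in their values was not tested. Within Tmem216-/- replicate 1 had the highest values of Emx1, Tbr1, Eomes and Nkx2-1. Tmem216-/- replicate 2 had the lowest values of Tbr1 and Eomes and the highest of Emx2 (19.1 TPM). The sum over 20 pan-neural genes was 2763, 3267 and 2955 TPM in Tmem216-/- and 2930, 2293 and 3912 TPM in wild type. Within Tmem216-/- replicate 2 thus had the highest neural sum and replicate 1 the lowest. In wild type the sample with the highest neural sum, replicate 3, was also highest for Tbr1, Eomes, Nkx2-1, Otx1, Six3 and Rax and lowest for Otx2 and Emx2. Scaled to the pan-neural genes, the log2 fold changes were -1.96 for Emx1 (adjusted p = 0.387 in limma), -1.38 for Tbr1, -1.38 for Eomes, -1.37 for Nkx2-1, -0.53 for Emx2 and 0.50 for Otx2, close to the unscaled values. With that scaling 4 factors were at an unadjusted p under 0.05 in limma, against 6 without it.

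Leaving out a sample whose fetal liver sum stood apart moved these values but not their signs. For factors whose groups did not overlap the sign could not change. Either removal also left fetal liver sums lower in every Tmem216-/- sample than in every wild type sample. The removals therefore do not take liver content out of the comparison, and its part was not tested. Without Tmem216-/- replicate 1 the log2 fold changes were -1.75 for Nkx2-1, -1.83 for Tbr1, -1.79 for Eomes, -0.53 for Emx2, 0.67 for Otx2 and 0.12 for Six3. Without wild type replicate 3 they were -1.95 for Emx1, -0.97 for Nkx2-1, -1.17 for Tbr1, -1.21 for Eomes, -0.62 for Emx2, 0.35 for Otx2 and 0.45 for Six3. With single samples left out, the Tbr1 value was nearest to 0 without Tmem216-/- replicate 2, at -0.79.

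**Figure D3:**
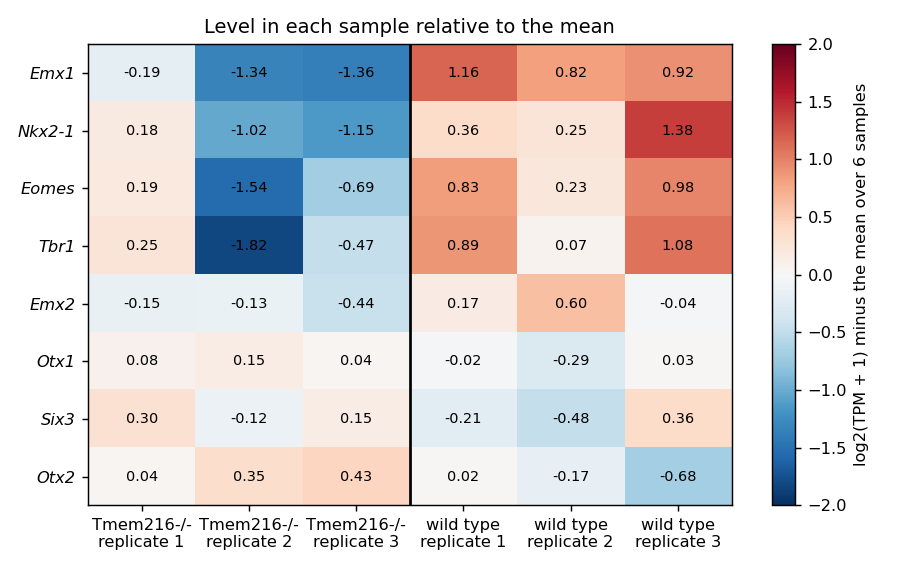
Log2(TPM + 1) of the 8 tested factors (rows) in each sample (columns, Tmem216-/- left of the line), minus the factor's mean over the 6 samples, with red above and blue below the mean. Tbr1 runs from -1.82 in Tmem216-/- replicate 2 to 1.08 in wild type replicate 3, while Otx1 stays between -0.29 and 0.15.

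Genes with profiles most like the factors were taken from tested genes at a mean of 5 TPM or more, by the same root mean square difference over the 6 samples. The nearest to Eomes were Tbr1 (0.17), Nkx2-1 (0.38) and Fezf2 (0.41), a zinc finger gene of deep-layer cortical neurons. Fezf2 was 5.36, 2.48 and 3.75 TPM in Tmem216-/- and 8.24, 6.56 and 7.11 TPM in wild type, with no overlap. Fezf2 was picked for its likeness to Eomes over these samples, so its lower values follow from the selection and are no separate result. The nearest to Nkx2-1 included Npy (0.34), which encodes neuropeptide Y, and Mt3 (0.37), a brain metallothionein gene, beside the assembled locus MSTRG.4437 (0.33). The nearest to Tbr1 above the size limit, which Eomes does not reach, were Nkx2-1 (0.50), Il31ra (0.52) and S100a8 (0.52).

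The nearest to Emx1 were S100a9 (0.35), a neutrophil calcium-binding protein gene, Pitx1 (0.39), the hindlimb and pituitary homeobox gene, and Gm43517 (0.40). Pitx1 was 13.8, 5.87 and 12.7 TPM in Tmem216-/- and 62.5, 34.5 and 35.2 TPM in wild type, a direction that likewise follows from its selection. The nearest to Emx2 were Setd6 (0.09), H2-D1 (0.10) and Foxf1 (0.11). For Otx1 they were Pfkl (0.03), Pgam1 (0.04) and Pfn2 (0.04), for Otx2 they included Bnip3 (0.05) and Cbwd1 (0.12), and for Six3 they were Lrrtm1 (0.05), Th (0.06) and Fam131a (0.06). Flat profiles lie close to many genes, so the small distances of Otx1 and Six3 are not comparable with those of Emx1.

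Other telencephalon factors lay mostly on the same side as Emx1, Tbr1 and Eomes. Of 21 listed, 21 were tested, 20 were lower and 1 higher in Tmem216-/-, none was called in limma, and the median log2 fold change was -0.47. Every Tmem216-/- value lay below every wild type value for 6 of the 21, against 4.83% of all tested genes. This list too was chosen with earlier results of these data known, so that comparison is not independent. The genes named next are among those with the smallest p of the list. For Neurod6 and Dmrt3 only replicate 1 of Tmem216-/- reached 1 TPM, so both passed the filter through their wild type values. Neurod6, a bHLH gene of cortical neurons, was 1.56, 0.43 and 0.50 TPM in Tmem216-/- and 6.20, 2.73 and 3.77 TPM in wild type (log2 fold change -1.51, SE 0.33, adjusted p = 0.440 in limma). Dmrt3, a gene of cortical progenitors, was 1.05 ± 0.71 TPM in Tmem216-/- and 3.52 ± 0.80 TPM in wild type (SD, n = 3 each; -1.18). Lhx2, a LIM gene of cortex and eye, was 51.7 ± 6.58 TPM in Tmem216-/- and 72.2 ± 10.2 TPM in wild type (SD, n = 3 each; -0.47).

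Of 15 hypothalamus, diencephalon and pituitary factors 10 were tested, 7 were higher and 3 lower, with a median log2 fold change of 0.42 and none called in limma. Dbx1, a progenitor gene of diencephalon and spinal cord, was 36.0, 48.2 and 50.3 TPM in Tmem216-/- and 19.97, 16.7 and 30.3 TPM in wild type (1.00, SE 0.24, adjusted p = 0.548 in limma). Barhl2 was at 0.46, and the pituitary and motor neuron gene Lhx3 was at -0.72. Of 15 eye factors 10 were tested, 5 were higher and 5 lower, with a median of 0.07 and none called. Tbx5, a gene of dorsal retina, heart and forelimb, was 15.3 ± 2.76 TPM in Tmem216-/- and 7.16 ± 4.80 TPM in wild type (SD, n = 3 each; 1.19), and Mitf, a gene of pigment cells, was 1.80 ± 0.55 TPM in Tmem216-/- and 0.93 ± 0.17 TPM in wild type (SD, n = 3 each; 0.52). Of 16 midbrain and hindbrain factors 15 were tested, 10 were higher and 5 lower, with a median of 0.18 and none called. Pax8, which is also a thyroid and kidney gene, was 5.80 ± 1.43 TPM in Tmem216-/- and 11.6 ± 1.49 TPM in wild type (SD, n = 3 each; -0.90), and En2 was at 0.86. Whether the telencephalon list differs from these lists was not tested.

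**Figure D4:**
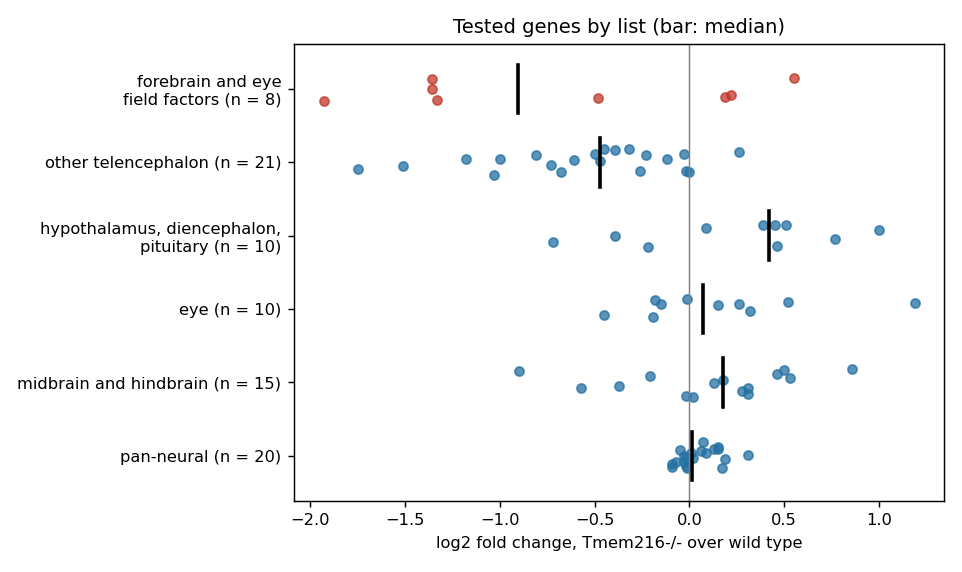
Log2 fold change of Tmem216-/- over wild type (horizontal axis) of every tested gene of 6 lists (rows), 1 point per gene with vertical scatter for legibility, and a bar at the list median. The forebrain and eye field factors (red) spread from -1.93 to 0.55, 20 of the 21 other telencephalon factors lie left of 0, with a list median of -0.47, and the pan-neural genes lie close to 0 with a median of 0.02.

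Paralogs and tissues that could share these factors were measured in the same samples. Of 13 paralogs 8 were tested, 3 were higher and 5 lower, with a median log2 fold change of -0.09 and none called in limma. Nkx2-5, the heart relative of Nkx2-1, was 3.73, 11.7 and 7.12 TPM in Tmem216-/- and 0.99, 0.43 and 1.67 TPM in wild type (2.00, SE 0.40, adjusted p = 0.315 in limma), in the same direction as the heart muscle genes. Nkx2-3, a gene of gut and pharyngeal tissue, was 0.89, 1.16 and 0.26 TPM in Tmem216-/- and 4.06, 2.97 and 2.48 TPM in wild type (-1.25). Nkx2-3 passed the filter through its wild type values, and Nkx2-5 through its Tmem216-/- values. Of 4 RNAs beside forebrain factors 2 were higher and 2 lower (median 0.03). Summed urogenital and nephric genes, relevant to Emx2, were 97.0 to 102 TPM in Tmem216-/- and 85.8 to 104 TPM in wild type, with 8 of 11 tested, a median of 0.07 and none called. Summed trophoblast genes, relevant to Eomes, were 6.4 to 7.6 TPM in Tmem216-/- and 8.8 to 17.4 TPM in wild type. Of the 10 genes 3 (Esx1, Prl2c2 and Tpbpa) were at 0 in every sample. Only 2 were tested, Tfap2c and Hand1, both lower and neither called. These 2 made up most of the sum in every sample, and whether they mark trophoblast here was not tested. Of 15 caudal Hox genes 13 were tested and 12 were lower (median -0.97, none called), and their sum was 66.3 to 127 TPM in Tmem216-/- and 118 to 240 TPM in wild type. All 10 fetal liver genes were lower (median -1.86, none called), with groups that overlapped in each. The part of these tissues in the values of the 10 factors was not tested.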

How the data were processed

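The authors deposited 1 table of TPM per gene for 3 Tmem216-/- and 3 wild type samples. The submitters' processing notes name CASAVA 1.8, HISAT2, StringTie and RSEM as tools and mm10 as the build. TPM keeps no depth, so no count model was used. A further 2 columns hold group means and were left out, and 27 gene names replaced by dates were recovered from identifiers.

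The members and all lists were chosen with earlier results of these data known. Values were log2(TPM + 1), fitted with limma (lmFit, then trended eBayes; two-sided), with p values adjusted over all tested genes. The fit was also run on simulated data with independent normal noise, which held no tissue differences shared across genes. Its outcome is not reported here. Exact permutation tests enumerated every assignment of genotype labels. Genes named from the 13 further lists are among the up to 4 tested genes of each with the smallest p, and those named as similar to a tested factor are among its 3 most similar. Some of these genes are not reported here. Deviations of same-numbered samples correlated at 0.0161, -0.0934 and 0.101, which gives no sign of pairing by number but cannot exclude it. The labels state no pairing. Alternatives covered pseudocounts, filters, scalings, variance models, a replicate block, a Y-linked covariate and each sample left out. Versions were Python 3.11.15, pandas 2.3.3, matplotlib 3.10.9, R 4.3.3 and limma 3.58.1.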

Additional observations from a re-analysis of the deposited data

How the results depend on the processing

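All 8 tested factors kept the sign of their log2 fold change under every alternative that could be fitted. There were 17 each and 16 for Eomes, which a filter at 5 TPM removed. Filters, variance models and the replicate block leave the log2 fold change as it is, so they could not change a sign. Nor could another pseudocount or a left-out sample for factors whose groups did not overlap. Six3 (SE 0.24 with all samples) fell to 0.03 without wild type replicate 2 and to 0.04 with a Y-linked covariate. No factor was called in limma under these alternatives except Emx1 without Tmem216-/- replicate 1 (adjusted p = 0.0252, range over the alternatives to 0.760), so the number of factors called ran from 0 to 1 with each sample left out. The number of factors at an unadjusted p under 0.05 ran from 2 to 5 with each sample left out, against 6 with all samples. It was 2 without Tmem216-/- replicate 2 or replicate 3 and 3 without wild type replicate 1 or replicate 3. The median of the tested factors was -0.33 with no filter, where Six6 and Rax enter, and -0.48 with a filter at 5 TPM, where Eomes leaves, and it ran from -1.14 to -0.66 with each sample left out. Over all genes the number called was 0 with no filter and between 0 and 27 with each sample left out, lowest for wild type replicate 1 and highest for Tmem216-/- replicate 1. With replicate number as a block (replicate block) 25 genes and 0 factors were called. The log2 ratio of Tbr1 over Eomes, whose difference was -0.003, turned to 0.136 with a pseudocount of 0.1 and ran from -0.112 to 0.140 with each sample left out. Tmem216 stayed between -4.31 and -2.27, and its adjusted p reached 0.196. The unknown depth leaves the precision of Six6 and Rax unknown. With 3 samples a group an exact permutation p cannot go below 0.1.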
